A study of Homo sapiens with 6 samples.

Results

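The MYC, MAX and MXD network is described here from the mRNA of its genes in CAL27, an established human line of oral squamous carcinoma, grown from a tongue tumour. Members were the rows whose gene name in the deposited table was 1 of 10: MYC, MYCL, MYCN, MAX, MXD1, MXI1, MXD3, MXD4, MNT and MGA. 9 of the 31368 rows carried such a name, and MYCN had no row. 3 libraries came from untreated CAL27 cells and 3 from CAL27 cells given 10 mM lactate for 24 h, each with poly-A-selected RNA. The labels name no other agent and do not state that replicates were grown as separate cultures. The p-values therefore weigh differences against the spread of these samples alone, and that spread may be technical. All 6 libraries are from 1 cell line. Fewer cells of a kind and less RNA per cell cannot be told apart in such bulk samples.

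The network is a set of basic helix-loop-helix leucine zipper proteins that bind DNA as pairs and compete for a shared partner. MYC, MYCL and MYCN pair with MAX at the E-box CACGTG and recruit acetyltransferases and elongation factors, and MYC is known as a driver of ribosome production and growth in many cancers. MXD1, MXI1, MXD3, MXD4 and MNT also pair with MAX but bring SIN3 and histone deacetylases, so they oppose MYC at the same sites. MGA pairs with MAX within a Polycomb-type repressor complex. MLX is a second shared partner, used by some MXD proteins, by MNT and by the glucose-responsive Mondo proteins. mRNA levels, which were measured here, do not give the amounts of these short-lived proteins.

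Expression was given as FPKM, read counts divided by gene length and library size, so levels of different genes can be compared within a library. The denominators behind the values were 25163374 to 40220226 per library. They were not the read totals. Reads recovered from the values came to 102% to 103% of them in untreated and 97.2% to 98.3% in lactate libraries. Log2 values of libraries correlated across genes at a Pearson r of 0.996 to 0.997 within groups and 0.989 to 0.991 between groups. Markers of squamous epithelium, 7 of 7 above 1 FPKM, summed to 453 to 469 FPKM per library. The sum covers unlike changes, since 5 of the 7 rose and 2 fell. KRT5 fell from 155 ± 1.68 to 118 ± 2.22 FPKM and KRT17 rose from 108 ± 1.76 to 136 ± 3.52, both named after their values were seen. The summed markers of fibroblasts (4 in the table, 0.831 to 0.955 FPKM untreated and 1.24 to 1.46 in lactate) and immune cells (4 in the table, 0.749 to 0.907 and 0.392 to 0.618) stayed low, and none of these 8 genes reached 1 FPKM. DCN and PTPRC had no row in the table. Of the 3 endothelial markers only CDH5 reached 1 FPKM, and the 3 summed to 1.03 to 1.41 FPKM. The part of other cell types in the results below was not tested.

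The members spanned a wide range of levels in untreated cells. MYC was the most abundant at 28.8 ± 0.437 FPKM (mean ± SD, n = 3), followed by MAX (10.97 ± 0.137), MXI1 (4.76 ± 0.111) and MXD1 (2.40 ± 0.0643). MNT (1.38 ± 0.152) and MXD3 (1.303 ± 0.132) came next and did not differ beyond their spread. MXD4 (1.01 ± 0.0418), MGA (0.837 ± 0.0134) and MYCL (0.627 ± 0.0402) were lowest. In lactate the order was the same down to MXD1, with MYC at 24.5 ± 0.840, MAX at 9.56 ± 0.0764, MXI1 at 5.55 ± 0.0990 and MXD1 at 2.18 ± 0.00740 FPKM. Below these, MXD3 (1.52 ± 0.131) stood above MNT (1.25 ± 0.0327), MXD4 (1.13 ± 0.0620), MGA (0.992 ± 0.0409) and MYCL (0.723 ± 0.106). In GRCh38 with GENCODE 29 the genes lie at chr14:65006174-65102695 (MAX), chr10:110207605-110287365 (MXI1), chr2:69897688-69942945 (MXD1), chr17:2384060-2401118 (MNT), chr5:177301461-177312757 (MXD3), chr4:2247432-2262294 (MXD4), chr15:41621224-41773081 (MGA) and chr1:39895426-39902256 (MYCL), each a protein-coding gene. These levels rested on 3346 to 4568 reads per library for MYC and on 82 to 166 for MYCL.

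**Figure D1:**
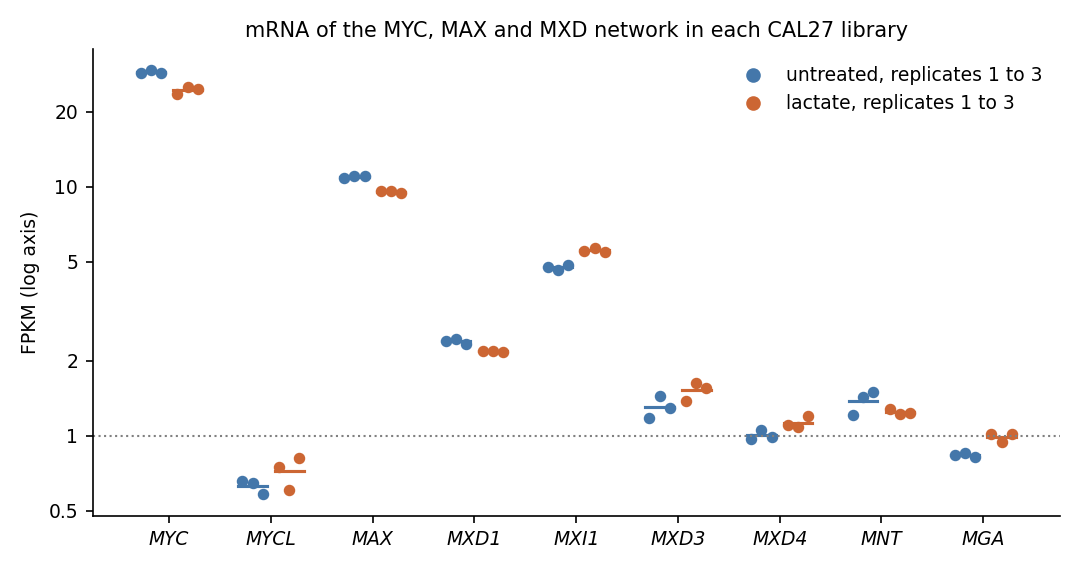
FPKM of each member on a log axis, with 1 point per library and a short line at the mean of each group of 3. The dotted line marks 1 FPKM, the level used for the filter. MYC, MAX and MXD1 lie lower in all 3 lactate libraries than in any untreated library, and MXI1, MXD4 and MGA lie higher. Groups did not overlap for 65.5% of all tested genes.

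The comparison asks how the mRNA of each member differed after lactate. Members were tested with limma on log2(FPKM + 1) together with all genes that reached 1 FPKM in at least 3 libraries. 7 of the 9 members passed that filter. MXD4 passed through all 3 lactate libraries and 1 untreated library. MYC and MAX fell, MXI1 rose, and the other 4 tested members did not pass at a Benjamini-Hochberg adjusted p under 0.05. So 3 of 7 were called, against 58.6% of the 11792 genes tested (27.7% rose and 30.9% fell). A count of 3 in 7 is no higher than that background, so it is not in itself a result about the network. The shares of all genes called in the other settings were 58.5% (pseudocount 0.1), 19.1% (no filter), 73.5% (filter at 5 FPKM), 55.5% (quantile normalization), 59.3% (median centring), 57.1% (read totals), 58.9% (no variance trend), 59.7% (replicate block), 48.8% (GC and length trend removed), 62.7% (voom) and 56.7% (division by the library sum).

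MYC, the growth-promoting factor of the set, read 28.5, 29.3 and 28.5 FPKM in untreated replicates 1 to 3 and 23.6, 25.2 and 24.8 in lactate replicates 1 to 3. All 3 lactate libraries lay below all untreated ones. Its log2 fold change was -0.22 (SE 0.030, 95% interval -0.29 to -0.15, limma adjusted p = 0.000554), and its mean FPKM changed by -14.8%. It was -0.13 after removal of each library's trend with GC content and length. MYCL, the paralog first found in lung cancer, read 0.656, 0.644 and 0.581 FPKM untreated and 0.746, 0.607 and 0.815 in lactate. Its groups overlapped and it stayed under the filter in every library. Tested without a filter it had a log2 fold change of 0.081 (adjusted p = 0.470), where 19.1% of 31368 genes were called.

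MAX, the partner that both MYC and its antagonists need, read 10.8, 11.1 and 10.996 FPKM untreated and 9.62, 9.59 and 9.47 in lactate. The groups did not overlap, which held for 65.5% of all tested genes (31.4% higher and 34.2% lower in lactate). MAX had a log2 fold change of -0.18 (SE 0.025, 95% interval -0.24 to -0.12, adjusted p = 0.000733). When FPKM were divided by the library sum of FPKM, a choice made after seeing the data, MAX no longer passed (-0.076, adjusted p = 0.0626) and MYC kept its call with a smaller value (-0.11, adjusted p = 0.0391). Library sums of FPKM were 432328 to 442352 untreated and 398439 to 409127 in lactate, so this scaling moved every gene up in lactate. It left 4780 genes higher and 1922 lower, against 3265 and 3649 as reported. Scaled to totals of recovered reads, 4215 genes rose and 2533 fell, and MYC (-0.15) and MAX (-0.11) kept their calls.

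Among the antagonists, MXI1 had the most mRNA. It encodes the MXD protein first described as a MAX interactor. MXI1 read 4.75, 4.65 and 4.87 FPKM untreated and 5.51, 5.66 and 5.47 in lactate, so that every lactate library lay above every untreated one. Its log2 fold change was 0.19 (SE 0.032, 95% interval 0.11 to 0.26, adjusted p = 0.00183). It was 0.10 after removal of the GC and length trend (adjusted p = 0.0303) and 0.28 after division by the library sum (adjusted p = 0.000413).

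MXD1, an antagonist known from differentiating epithelial and blood cells, read 2.41, 2.45 and 2.33 FPKM untreated and 2.19, 2.18 and 2.17 in lactate. The groups did not overlap, but the change did not pass (log2 fold change -0.094, SE 0.036, adjusted p = 0.0553). It passed with the GC and length trend removed (-0.21, adjusted p = 0.00275), with quantile normalization (-0.13, adjusted p = 0.0196), with median centring (-0.12, adjusted p = 0.0281) and without a variance trend (adjusted p = 0.0205). After division by the library sum it was -0.014 (adjusted p = 0.766). MXD1 shares 237 nt of its exons, out of 6351 nt, with SNRNP27 on the same strand. SNRNP27 averaged 16.7 FPKM, so the MXD1 value depends on how reads from the shared stretch were assigned.

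MXD3, the family member tied to S phase, read 1.18, 1.44 and 1.29 FPKM untreated and 1.38, 1.63 and 1.56 in lactate, and the groups overlapped. It did not pass (0.13, SE 0.063, adjusted p = 0.107), but did with voom on recovered reads (0.24, adjusted p = 0.0402), with the GC and length trend removed (0.21, adjusted p = 0.0118) and after division by the library sum (0.20, adjusted p = 0.0380). Its exons overlap 1158 nt of PRELID1 on the opposite strand and 926 nt of RAB24 on the same strand, out of 5154 nt. PRELID1 averaged 64.3 FPKM, so the MXD3 value depends on how such reads were assigned, which is not given in the sources used here.

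MXD4 read 0.972, 1.05 and 0.992 FPKM untreated and 1.0998, 1.09 and 1.201 in lactate, a narrow gap between groups that did not pass (0.087, SE 0.051, adjusted p = 0.179). It passed with the GC and length trend removed (0.15, adjusted p = 0.0350) and after division by the library sum (0.15, adjusted p = 0.0447). MNT, the antagonist expressed in most dividing cells, read 1.21, 1.43 and 1.498 FPKM untreated and 1.28, 1.22 and 1.23 in lactate. Untreated replicate 1 lay below every lactate library and the other two lay above them. MNT did not pass (-0.080, SE 0.059, 95% interval -0.22 to 0.058, adjusted p = 0.277), and without untreated replicate 1 the value was -0.13 (adjusted p = 0.0683).

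MGA, the giant member that also carries a T-box domain, read 0.837, 0.850 and 0.823 FPKM untreated and 1.01, 0.945 and 1.02 in lactate. All 3 lactate libraries lay above the untreated ones. Only 2 libraries reached 1 FPKM, so MGA was not among the tested genes. Without a filter its log2 fold change was 0.12 (adjusted p = 0.118). Its long transcript gave 419 to 803 reads per library in spite of the low FPKM. Adding 1 before the logarithm shrinks the log2 fold changes of low members. Mean FPKM was higher in lactate by 16.6% for MXI1, 16.9% for MXD3, 12.4% for MXD4, 18.6% for MGA and 15.3% for MYCL. The changes were -14.8% for MYC, -12.8% for MAX, -8.99% for MXD1 and -9.49% for MNT.

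**Figure D2:**
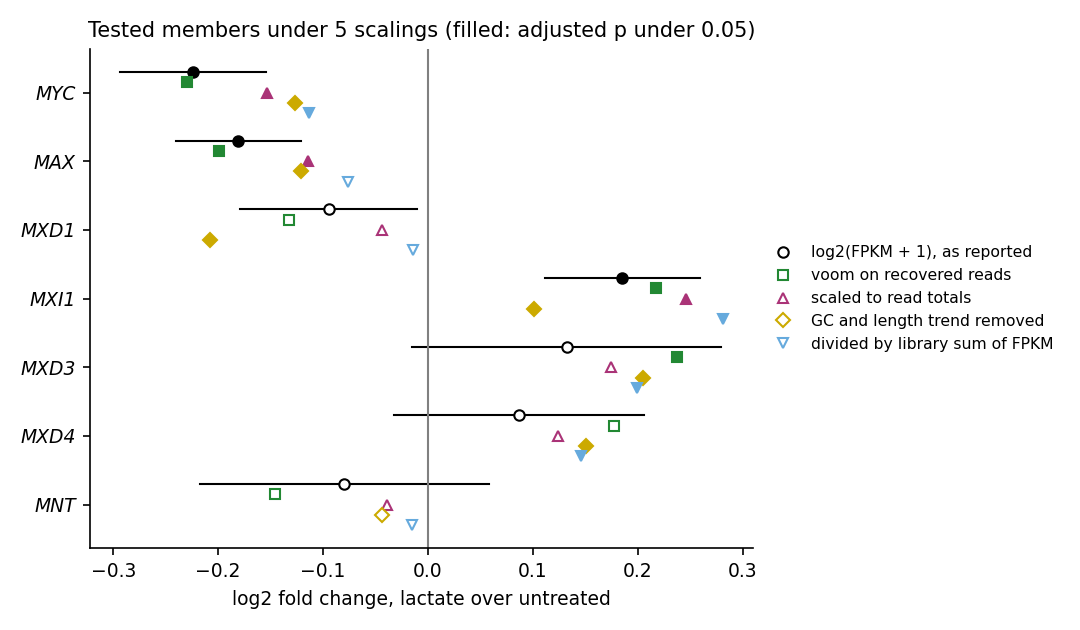
Log2 fold change of the 7 tested members, lactate over untreated, in 5 settings. These are the values as reported, voom, read totals, GC and length trend removed, and division by the library sum. Black lines are the 95% intervals of the values as reported, and filled symbols have an adjusted p under 0.05. MYC lies between -0.23 and -0.11 and MXI1 between 0.10 and 0.28. MXD1 moves from -0.21 with the trend removed to -0.014 after division by the library sum.

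The balance of the network was read from sums of FPKM within each library, as a description with no test. MYC and MYCL together gave 29.2, 29.9 and 29.1 FPKM in untreated replicates 1 to 3 and 24.3, 25.8 and 25.6 in lactate. The 6 antagonists together gave 11.4, 11.9 and 11.8 FPKM untreated and 12.5, 12.7 and 12.7 in lactate. Per FPKM of MYC and MYCL there were therefore 0.389, 0.397 and 0.405 FPKM of antagonists in untreated cells and 0.513, 0.493 and 0.494 in lactate. The groups stood apart in this ratio. Dividing a whole library by 1 factor cannot move it, and it was not recomputed with the GC and length trend removed, where the values of MYC and MXI1 were smaller. Without any 1 library the difference between groups was 0.0969 to 0.107, against 0.103 with all.

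Of the summed FPKM of all members, MYC and MYCL made up 56.5% ± 0.386 in untreated cells and 53.2% ± 0.706 in lactate (SD, n = 3). MAX made up 21.1% ± 0.113 and 20.2% ± 0.482, and the antagonists 22.4% ± 0.314 and 26.6% ± 0.227. MAX per FPKM of MYC and MYCL was 0.373 ± 0.00425 untreated and 0.379 ± 0.0142 in lactate, with overlapping groups. Within the antagonists the share of MXI1 was 40.8% ± 1.42 untreated and 43.9% ± 0.647 in lactate. The share of MXD1 was 20.5% ± 0.758 and 17.3% ± 0.215.

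**Figure D3:**
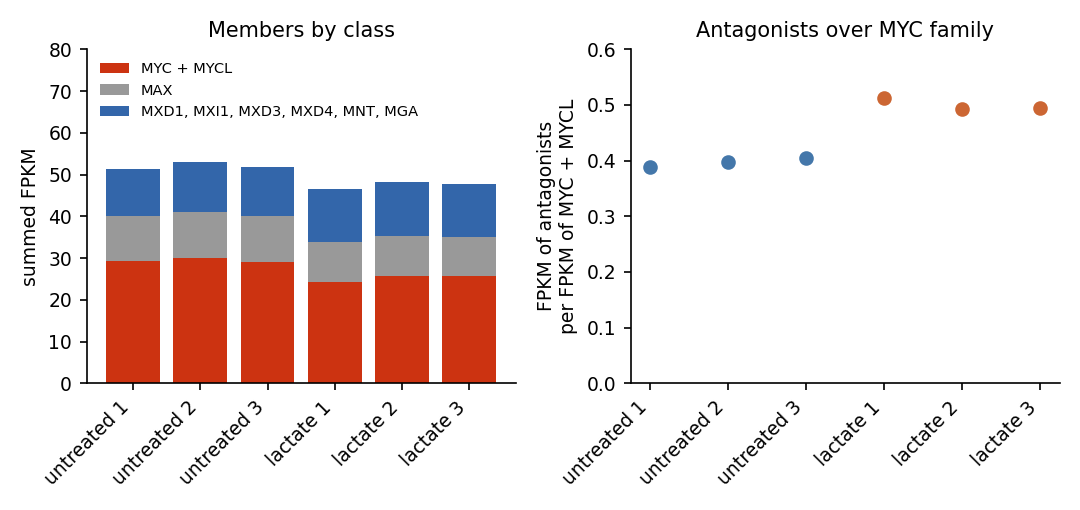
Left, summed FPKM of MYC and MYCL, MAX and the 6 antagonists stacked for each library. Right, FPKM of antagonists per FPKM of MYC and MYCL, 1 point per library, with untreated libraries in blue between 0.389 and 0.405 and lactate libraries in orange between 0.493 and 0.513.

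MLX, the alternative partner of MXD1, MXD4 and MNT, was abundant and fell, with 20.3, 19.8 and 21.0 FPKM untreated and 17.2, 16.4 and 17.1 in lactate (log2 fold change -0.25, SE 0.031, adjusted p = 0.000419). Every lactate library lay below the untreated ones, and the value was -0.14 after division by the library sum. Its Mondo partner MLXIP went from 2.75 ± 0.0793 to 2.64 ± 0.0596 FPKM and did not pass (-0.044, adjusted p = 0.326). The sign of the MLXIP value changed when libraries were scaled to read totals (0.0087) or to the library sum (0.040). The liver-type Mondo gene MLXIPL reached at most 0.0758 FPKM in any library.

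Genes that act with the network were taken from lists written from general knowledge, each described by its count of calls and median beside the median of all tested genes (-0.016) and the shares of all tested genes that rose (27.7%) and fell (30.9%). Both shares depended on the setting. They were 28.1% and 27.3% with quantile normalization, 35.7% and 21.4% with read totals, 23% and 25.8% after removal of the GC and length trend, and 40.4% and 16.2% after division by the library sum. With voom 3519 of 11792 genes rose and 3873 fell. The filter at 5 FPKM gave 1786 risen and 2955 fallen of 6448 genes, and no filter gave 2905 and 3076 of 31368. Of 18 tested coactivators and elongation factors of MYC, 9 fell and 3 rose, with a median log2 fold change of -0.10. After division by the library sum 6 fell and 6 rose. With voom 10 fell and 5 rose, and 9 fell and 1 rose without untreated replicate 2 or without lactate replicate 2. Without a filter 8 fell and 1 rose, and at 5 FPKM 9 fell and 1 rose. The acetyltransferase gene KAT2A went from 11.4 ± 0.369 to 8.43 ± 0.00681 FPKM (-0.40, adjusted p = 5.21e-05). The AAA ATPase gene RUVBL1 went from 38.05 ± 0.552 to 30.4 ± 0.769 FPKM, its partner RUVBL2 from 84.4 ± 0.832 to 73.9 ± 0.939, and the elongation factor gene SUPT5H from 16.3 ± 0.379 to 13.3 ± 0.0656. All 4 fell. After division by the library sum RUVBL1 was at -0.20 and SUPT5H at -0.16, both still called. RUVBL2 no longer passed with quantile normalization (-0.042, adjusted p = 0.108).

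Of 17 tested genes for turnover of MYC protein, 11 rose and 5 fell, with a median of 0.15. At a filter of 5 FPKM 6 rose and 4 fell. HUWE1, a giant ubiquitin ligase gene, went from 7.79 ± 0.239 to 9.84 ± 0.132 FPKM (0.30, adjusted p = 0.000175), and USP7, a deubiquitinase gene, from 7.64 ± 0.333 to 10.4 ± 0.266 (0.40). The mitotic kinase genes AURKA (56.0 ± 0.518 to 48.0 ± 0.722 FPKM) and PLK1 (24.3 ± 0.337 to 20.5 ± 0.229) fell. AURKA went from -0.22 to -0.092 with quantile normalization, and PLK1 from -0.24 to -0.13 after division by the library sum, both still called. AURKA and PLK1 proteins are known to stabilise MYC proteins, while HUWE1 marks them for turnover. The list mixes genes of both kinds, and the genes named had its smallest p and were not picked by role. Its counts and median therefore give no direction for MYC protein, which was not measured. FBXW7, the ligase that recognises phosphorylated MYC, stayed near the filter at 0.741 ± 0.0774 and 0.869 ± 0.0675 FPKM and was not tested. After removal of the GC and length trend 8 of the list rose and 5 fell, and after division by the library sum 12 rose and 2 fell. The tested genes of this list had a median GC content of 45.7%, against 48.1% for all tested genes.

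Of 11 tested corepressor genes of the MXD proteins and MNT, 5 rose and 3 fell, with a median of 0.092. With read totals or the library sum 7 rose and 2 fell, at a filter of 5 FPKM 3 rose and 3 fell, and without lactate replicate 3 there were 3 that rose and 2 that fell. The histone deacetylase genes HDAC1 and HDAC2 went opposite ways, HDAC1 from 78.1 ± 1.72 to 65.0 ± 1.23 FPKM (-0.26, adjusted p = 0.000110) and HDAC2 from 8.10 ± 0.0286 to 10.2 ± 0.257 (0.30, adjusted p = 0.000118). HDAC1 was at -0.12 with quantile normalization, and HDAC2 at 0.095 after removal of the GC and length trend, both still called. NCOR1, a nuclear receptor corepressor gene, rose from 2.91 ± 0.0364 to 3.96 ± 0.113 FPKM, and the SIN3 subunit gene SUDS3 from 11.7 ± 0.125 to 14.8 ± 0.526. Of 11 tested genes of the Polycomb-type complex of MGA, 3 rose and 3 fell (median 0.023), near the shares of all genes. The split was 6 and 1 after division by the library sum, 4 and 1 with read totals and 5 and 2 with quantile normalization. RNF2, its ubiquitin ligase gene, rose from 4.14 ± 0.0300 to 5.86 ± 0.108 FPKM (0.42, adjusted p = 4.15e-05), and so did PCGF6 (0.20). L3MBTL2, a methyl-lysine reader gene, fell (-0.26), as did the methyltransferase gene EHMT2 (-0.14). EHMT2 no longer passed with read totals (-0.082, adjusted p = 0.110) or after division by the library sum (-0.046, adjusted p = 0.402), while PCGF6 and L3MBTL2 kept their calls in every setting tried. PCGF6 ranged from 0.13 after removal of the GC and length trend to 0.30 after division by the library sum, where L3MBTL2 was at -0.17.

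Of 12 tested genes that act on MYC transcription or its mRNA, 3 rose and 2 fell, with a median of -0.0021. With read totals 6 rose and 2 fell, with quantile normalization 5 and 2, and at a filter of 5 FPKM 4 and 1. IGF2BP2 and IGF2BP3, which encode RNA-binding proteins known to stabilise MYC mRNA, rose from 19.6 ± 0.211 to 26.3 ± 0.322 FPKM (0.41, adjusted p = 1.70e-05) and from 6.48 ± 0.137 to 8.58 ± 0.260 (0.36). Their paralog IGF2BP1, named after its values were seen, was lower in lactate. It went from 1.45 ± 0.0289 to 1.26 ± 0.0748 FPKM and did not pass (-0.11, adjusted p = 0.0720). CNBP, a nucleic acid-binding protein gene, fell from 162 ± 2.20 to 138 ± 1.24 FPKM (-0.23). PVT1, the long noncoding RNA gene next to MYC, fell from 1.66 ± 0.0201 to 1.32 ± 0.0546 FPKM (-0.20, adjusted p = 0.00571). In other settings IGF2BP3 went down to 0.19 (GC and length trend removed), CNBP to -0.055 (quantile normalization) and PVT1 ranged from -0.34 (voom) to -0.13 (library sum), each still called. After division by the library sum 7 of this list rose and 2 fell, and after removal of the GC and length trend 2 rose and 5 fell.

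The DNA element that the network reads was looked for in promoter windows from RefSeq (GRCh38.p14), which run from 250 bases before to 50 bases after a start site. The motif searched was CACGTG, which reads the same on both strands. It occurred in a window of 8.77% of 27305 genes. Windows were found for 9 of the 10 members, MYCN included. MYC had none, so its promoter was not searched. Of those 9, 2 held the motif, MNT and MXD4. MLX held it too. The 250 bases before the start are printed for these 3 genes and for ODC1 and CDK4, long-known MYC targets, to show what the element looks like where it occurs. CACGTG is in capitals, each sequence runs 5′ to 3′ on the strand of its gene, and CDK4 was chosen, after its values were seen, for its 3 copies. MNT is chr17:2401061-2401310 (minus strand), MXD4 chr4:2262110-2262359 (minus), MLX chr17:42566850-42567099 (plus), ODC1 chr2:10448013-10448262 (minus) and CDK4 chr12:57752311-57752560 (minus).
MNT: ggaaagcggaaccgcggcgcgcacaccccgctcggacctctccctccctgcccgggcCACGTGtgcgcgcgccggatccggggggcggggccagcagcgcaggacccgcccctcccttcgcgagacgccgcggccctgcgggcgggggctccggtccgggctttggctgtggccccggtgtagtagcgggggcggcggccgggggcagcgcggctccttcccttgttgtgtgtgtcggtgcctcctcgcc
MXD4: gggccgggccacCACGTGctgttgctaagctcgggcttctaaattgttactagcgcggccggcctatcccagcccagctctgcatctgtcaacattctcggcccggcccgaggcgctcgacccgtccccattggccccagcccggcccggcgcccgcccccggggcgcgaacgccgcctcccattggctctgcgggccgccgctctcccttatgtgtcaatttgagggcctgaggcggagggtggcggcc
MLX: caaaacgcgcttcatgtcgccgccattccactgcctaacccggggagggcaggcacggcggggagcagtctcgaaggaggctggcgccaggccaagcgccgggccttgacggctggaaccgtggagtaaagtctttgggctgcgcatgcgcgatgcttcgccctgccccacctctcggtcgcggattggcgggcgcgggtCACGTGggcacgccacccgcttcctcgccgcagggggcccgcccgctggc
ODC1: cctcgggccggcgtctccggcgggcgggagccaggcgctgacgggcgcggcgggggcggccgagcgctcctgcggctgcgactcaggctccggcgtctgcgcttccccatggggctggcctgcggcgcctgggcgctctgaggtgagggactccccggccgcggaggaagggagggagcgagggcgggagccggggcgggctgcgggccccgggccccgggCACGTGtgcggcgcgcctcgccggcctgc
CDK4: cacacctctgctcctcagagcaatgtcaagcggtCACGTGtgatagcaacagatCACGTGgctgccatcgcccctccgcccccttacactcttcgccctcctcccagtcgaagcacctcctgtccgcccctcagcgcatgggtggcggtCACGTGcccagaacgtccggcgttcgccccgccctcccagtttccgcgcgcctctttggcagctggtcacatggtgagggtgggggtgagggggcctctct
A match describes the letters only and does not show that a protein was bound.

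Targets that MYC is known to activate made up the longest list. Of 63 tested genes, 51 fell, 7 rose and 5 did not pass, with a median log2 fold change of -0.26, against 30.9% fallen and 27.7% risen among all tested genes. More abundant genes fell more often in general. With the filter at 5 FPKM, 2955 of all 6448 genes fell and 1786 rose, with a median of -0.071. There 48 of the targets fell and 6 rose. This list overlaps ribosome biogenesis genes already known to be lower in these libraries, so its direction is not independent evidence. ODC1, the rate-limiting enzyme gene of polyamine synthesis and holder of an E-box printed above, went from 166 ± 1.99 to 116 ± 1.25 FPKM (-0.52, SE 0.018, adjusted p = 6.27e-06). NOP56 (85.2 ± 0.719 to 56.6 ± 0.976 FPKM) and MRTO4 (84.6 ± 1.43 to 60.1 ± 1.17) are ribosome assembly genes, and PA2G4 (102 ± 2.09 to 75.8 ± 0.983) encodes a growth-related binding protein. All 4 fell and kept their calls in every setting, with PA2G4 at -0.28 after quantile normalization against -0.42 as reported. CDK4, the G1 cyclin-dependent kinase gene, fell from 85.02 ± 1.13 to 62.9 ± 1.80 FPKM (-0.43, adjusted p = 2.04e-05).

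The 7 that rose, named after their values were seen, were HSPD1 (131 ± 2.66 to 148 ± 3.37 FPKM), WDR43, DDX18, GNL3, MPHOSPH10, UTP20 and EIF4E, with log2 fold changes of 0.089 (GNL3) to 0.19 (DDX18). After removal of the GC and length trend, 49 fell and 1 rose, and the median was -0.19 (all tested genes -0.0048). After division by the library sum 40 fell and 9 rose, where 16.2% of all genes fell and 40.4% rose.

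48 of the 63 tested targets had a promoter window, and 25 of these (52.1%) held CACGTG. Among all tested genes with a window the share was 13.1%. Of the 25 targets with the motif 17 fell and 5 rose (median -0.32), and of the 23 without it 21 fell and 0 rose (median -0.23). After removal of the GC and length trend the medians were -0.18 and -0.20, and 19 fell in each. Over the other 8319 tested genes with a window, 35.4% of the 1068 with the motif fell and 28.5% rose, against 30.8% and 31.2% of the 7251 without it. Median GC content was 49.5% with and 47.9% without the motif. Presence of the motif is given as a description and was not tested as a source of the fold changes.

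Of 11 tested genes that MYC is known to repress, 3 rose and 3 fell (median -0.022), near the shares of all genes. With quantile normalization or the library sum 5 rose and 1 fell, and after removal of the GC and length trend 4 rose and 1 fell. NDRG1, a gene of stress and differentiation, rose from 4.97 ± 0.0501 to 9.06 ± 0.334 FPKM (0.75, adjusted p = 1.20e-05). THBS1, the gene of the angiogenesis inhibitor thrombospondin, rose from 62.7 ± 0.924 to 88.7 ± 0.454 and the integrin gene ITGA6 from 32.6 ± 0.664 to 45.5 ± 0.635. DDIT3, a stress-response factor gene, fell (-0.38, and -0.23 after removal of the GC and length trend), and CDKN1A, the classic repressed cell cycle inhibitor gene, went from 40.4 ± 1.302 to 40.97 ± 1.18 FPKM and did not pass (adjusted p = 0.628). MXD1 is known from keratinocyte differentiation, but only 4 of 14 genes of that programme passed the filter. Of these KRT10 fell (14.4 ± 0.598 to 12.6 ± 0.914 FPKM, adjusted p = 0.0191), and CNFN (adjusted p = 0.110), SPRR1B (0.312) and SPRR1A (0.862) did not pass. The KRT10 call was lost in 6 of the 17 other settings.

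**Figure D4:**
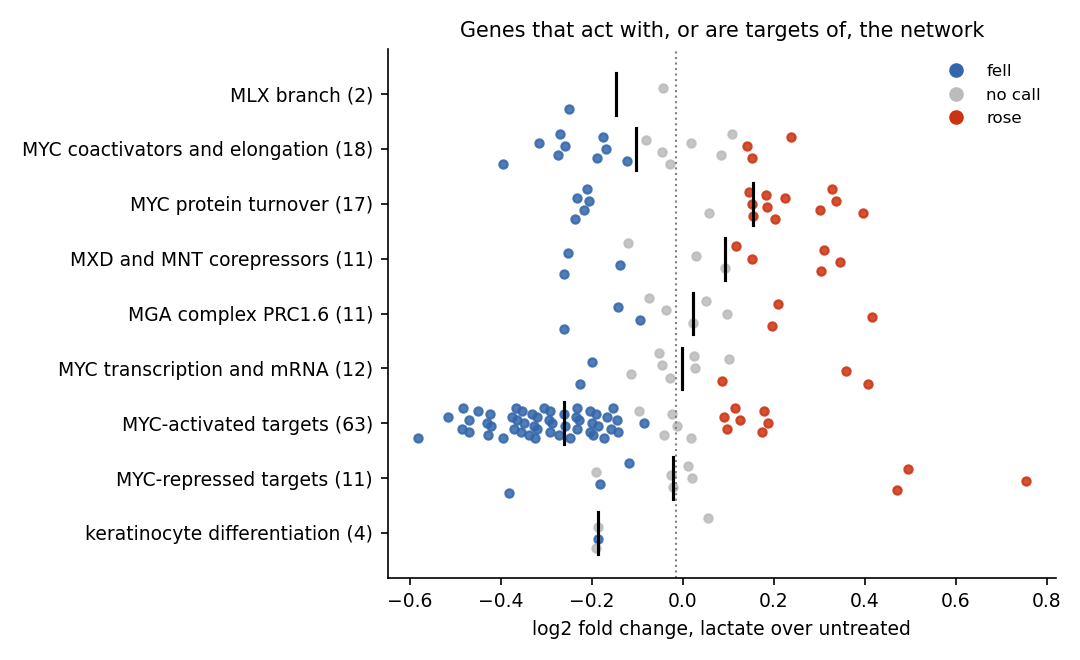
Log2 fold change of each tested gene in 9 lists around the network, the members left out, with the number tested in brackets. Blue genes fell, red rose and grey did not pass, black bars are list medians and the dotted line is the median of all tested genes. The MYC-activated targets cluster to the left, with 51 of 63 blue.

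The genes whose values ran closest to MYC over the 6 libraries were STOML1, RRAD, RETREG2, SNX17 and BAG6, each with a Pearson r of 0.998 or more on log2(FPKM + 1). All 6 points fall in the same 2 groups, and 1314 of 11785 other genes had an r of at least 0.95. The closeness is given as a description. RRAD, a small GTPase gene, went from 4.02 ± 0.196 to 2.41 ± 0.243 FPKM, and STOML1 from 2.94 ± 0.0674 to 2.29 ± 0.127.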

How the data were processed

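Poly-A RNA of 3 untreated and 3 lactate-treated CAL27 libraries was grouped by the treatment in the labels. The submitters' processing notes list build hg38 and featureCounts 1.5.0-p3, StringTie 1.3.3b, HISAT2 2.0.5 and fastp. What each did, the annotation and any use of strand were not given in the sources used here. FPKM were deposited by the authors, per the file headers. Low values were whole multiples of a constant, and whole reads were recovered for 31366 of 31368 genes, within 0.003 reads (plus 2e-08 of the reads where the length was GENCODE's). Recovered reads came to 102% to 103% of the denominators in untreated and 97.2% to 98.3% in lactate libraries, so the authors' values appear scaled between libraries.

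The main test was limma 3.58.1 (R 4.3.3, trended and robust variance) on log2(FPKM + 1), group only, for genes reaching 1 FPKM in 3 or more libraries, with Benjamini-Hochberg adjustment. It was tested on simulated data with few changed genes and no scaling difference between groups. That test does not bear on how the deposited values were scaled. Log2 folds understate low genes. GC content and exon overlaps came from GENCODE 29. Members and lists were chosen with earlier results of these data known. Named were all members, the MLX branch, up to 4 genes per list with the smallest p and the 5 genes closest to MYC. Others were named after their values were seen. Alternatives were other filters, pseudocount, scalings, variance model, voom on recovered reads, replicate block and each library left out. Division by the library sum was added after seeing the data for the fold changes.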

Additional observations from a re-analysis of the deposited data

How the results depend on the processing

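MYC and MXI1 kept their direction and call in all 17 other settings, and MAX in all but division by the library sum of FPKM (-0.076). MXD1 passed without a variance trend (-0.094), after quantile normalization (-0.13) or median centring (-0.12) and after removal of the GC and length trend (-0.21). MXD3 passed with that trend removed (0.21), voom (0.24) and the library sum (0.20), and MXD4 with the trend removed (0.15) and the library sum (0.15), so that 6 members passed with the trend removed, where 48.8% of all genes did, against 3 and 58.6% as reported. Causes were not tested. Without 1 library each, MYC lay at -0.24 to -0.20, MAX at -0.19 to -0.17, MXI1 at 0.17 to 0.20, MXD1 at -0.11 to -0.082, MXD3 at 0.093 to 0.18, MXD4 at 0.063 to 0.10 and MNT at -0.13 to -0.043, and 5967 to 6432 genes passed. A filter at 5 FPKM tested fewer genes and left 1786 risen, and the library sum left 1922 fallen. Risen MYC-activated targets went from 7 to 1 once that trend was removed. The summed FPKM of the members differed by -4.64 between groups (-4.99 to -4.14 without 1 library) and by -0.677 after division by the library sum. MLXIP changed sign with read totals (0.0087) and the library sum (0.040), SPRR1B with the trend removed (0.0078), and SPRR1A without untreated replicate 2 (-0.093), lactate replicate 2 (-0.023) or lactate replicate 3 (-0.10), in a range of -0.10 to 0.29 without 1 library each. The antagonist ratio differed by 0.0969 to 0.107 without 1 library each. Of 571 pairs of a setting and a gene of the MLX branch or named by smallest p in its list, 9 lost a call and 6 changed sign. With the replicate number as a replicate block MYC was at -0.22 (adjusted p = 0.000716), MAX at -0.18 (0.00254), MXI1 at 0.19 (0.00625), MXD1 at -0.094 (0.0911), MXD3 at 0.13 (0.0639), MXD4 at 0.087 (0.247) and MNT at -0.080 (0.321), 7039 genes passed, and no member changed call. Same-numbered libraries deviated together at r of only 0.0526, 0.0668 and -0.00377, so the numbers were not taken as pairs. Yet 4 of 6 libraries correlated best with a library of their own number. MXD3, MXD4 and MNT rested on 172 to 434 reads per library and MYCL on 82 to 166.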
